A study of Mus musculus with 8 samples.

Results

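The genes of the MYC family and its partners were followed across 8 chromatin immunoprecipitation sequencing (ChIP-seq) libraries. In this method an antibody pulls down a protein with its DNA, and the DNA is read. The members were Myc, Mycn and Mycl, their shared partner Max, and Mxd1, Mxd3, Mxd4, Mxi1, Mnt and Mga. They make up 10 of the 21951 protein-coding genes of the GENCODE M21 annotation, and every peak near or inside them was collected from all 8 peak lists. All libraries came from E14Tg2a, a single mouse embryonic stem cell line, at passages 37 to 40. Leukemia inhibitory factor (LIF) kept the ESCs pluripotent, whereas the neuronal cells (NCs) were LIF-free monolayers that received 1 µM retinoic acid (RA) over 48 h. Both states were studied with antibodies to FGFR1, a growth factor receptor that also occurs in the nucleus, and to the nuclear receptors RXR and Nur77, while an antibody to the histone variant H3.3 was used in NCs. FGFR1 in RA had 2 libraries, titled as separate experiments, and the other 6 groups had 1 library each. Cells of several plates were pooled for each immunoprecipitation, and the peak calling names no control library. The lists hold bound regions and no expression levels, so the cell state was not checked against marker genes here.

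MYC, MYCN and MYCL are basic helix-loop-helix leucine zipper proteins that bind DNA as dimers with MAX, typically at the E-box word CACGTG, and promote cell growth and ribosome production. MXD1, MXD3, MXD4, MXI1, MNT and MGA also pair with MAX, and most of these dimers occupy the same E-boxes and recruit repressors. In mouse ESCs the network helps to maintain self-renewal, and Myc is a known target of LIF signalling.

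A peak was assigned to a gene's promoter window when it covered at least 20 bp of the span from 5 kb upstream to 1 kb downstream of any annotated transcript start, and otherwise to the gene body. Each peak carries the deposited fold over local background and the deposited −log10 p of its summit. From these 2 values the whole number of fragments at the summit was recovered, and it was also expressed as a multiple of the library's own genome-wide background, with an exact Poisson 95% interval that covers counting error only. The members held 80 of the 176687 peaks of the 8 lists, 62 in promoter windows and 18 elsewhere in gene bodies, and peaks that shared bases formed 34 sites. An alternating run means at least 20 bp in which purines and pyrimidines strictly alternate.

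The inferred background ran from 1.27 fragments per kb for H3.3 to 7.09 for RXR in LIF, and at the genome-wide background a peak needed from 4 to 8 fragments to pass the p limit. FGFR1 in RA library 2 stood apart, with a median of 27 fragments per summit against 9 to 12 in the other libraries, a median peak width of 311 bp against 89 to 140 bp, and alternating runs in 1.26% of its peaks against 21.1% to 51.7%. Results that rest on this library are therefore given with library 1 beside it.

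Sequences of the sites that recurred in at least 3 libraries are shown first, because several libraries had peaks on the same bases there. They are mm10 sequence 5′ to 3′ on the gene's strand, limited to bases that peaks of at least 3 libraries covered and that lie outside annotated UTRs. Capitals mark the E-box, which occurred in the Max stretch, and the other 5 words searched around summits were not in these stretches.
Max start site (chr12:76962202-76962290, minus strand, peaks in 8 libraries): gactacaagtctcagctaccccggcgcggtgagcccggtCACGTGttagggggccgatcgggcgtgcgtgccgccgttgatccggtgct
Mga start site (chr2:119897121-119897227, plus strand, peaks in 8 libraries): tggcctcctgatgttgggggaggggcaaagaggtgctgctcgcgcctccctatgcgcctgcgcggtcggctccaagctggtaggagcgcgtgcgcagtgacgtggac
Mga intron site (chr2:119898314-119898438, plus strand, peaks in 4 libraries): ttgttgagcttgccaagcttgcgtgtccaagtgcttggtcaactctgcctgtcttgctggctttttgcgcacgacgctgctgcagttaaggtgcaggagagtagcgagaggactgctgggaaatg
Mxd1 first coding exon and its splice site (chr6:86668919-86669008, minus strand, peaks in 5 libraries): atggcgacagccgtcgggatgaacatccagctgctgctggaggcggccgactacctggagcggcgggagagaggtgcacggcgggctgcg
Mxd4 upstream site (chr5:34188096-34188264, minus strand, peaks in 4 libraries): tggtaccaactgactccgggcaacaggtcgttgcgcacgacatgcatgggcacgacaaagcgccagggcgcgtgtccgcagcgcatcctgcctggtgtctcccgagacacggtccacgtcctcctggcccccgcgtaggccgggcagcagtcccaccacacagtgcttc

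The Max, Mga, Mxd1 and Mxd4 stretches at and upstream of starts were 66.9% to 70.0% G and C and held 10 to 16 CpG steps each, while the Mga intron stretch was 54.4% G and C with 5 CpG steps. In the Max stretch the E-box occupied bases -50 to -45 relative to the outermost start.

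The alternating runs in members' peaks are shown as a separate set, since they carry the peak of Myc and the family's peaks of highest −log10 p. All lie on the plus strand, which is the strand of these 3 genes, with the run nearest the summits in capitals and up to 12 flanking bases in lower case. The Mycl run lies in a 5′ UTR and is printed without flanks.
Myc intron (chr15:61987327-61987397, peak in 1 library): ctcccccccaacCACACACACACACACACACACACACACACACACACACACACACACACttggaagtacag
Mycl (chr4:122996064-122996084, peak in 1 library): GCGCGCATGTGTGTGTGTGCG
Mxi1 intron near the outermost start (chr19:53311068-53311141, peak in 1 library): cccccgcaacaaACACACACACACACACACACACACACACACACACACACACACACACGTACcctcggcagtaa
Mxi1 internal promoter (chr19:53330042-53330110, peaks in 4 libraries): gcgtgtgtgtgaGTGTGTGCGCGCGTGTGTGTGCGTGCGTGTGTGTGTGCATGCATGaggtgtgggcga
Mxi1 intron cluster (chr19:53349268-53349550, peaks in 7 libraries): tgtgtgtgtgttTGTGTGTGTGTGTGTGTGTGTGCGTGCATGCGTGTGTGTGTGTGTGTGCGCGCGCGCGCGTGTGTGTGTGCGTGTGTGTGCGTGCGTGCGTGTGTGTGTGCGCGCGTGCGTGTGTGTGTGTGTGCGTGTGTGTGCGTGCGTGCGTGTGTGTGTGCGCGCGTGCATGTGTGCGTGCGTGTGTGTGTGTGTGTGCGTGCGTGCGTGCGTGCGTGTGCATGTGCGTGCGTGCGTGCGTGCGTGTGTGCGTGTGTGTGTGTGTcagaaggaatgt
Mxi1 distal intron (chr19:53363553-53363607, peak in 1 library): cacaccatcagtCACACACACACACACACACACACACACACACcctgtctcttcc

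The comparison across libraries asked which members each protein occupied before and after RA. FGFR1 in LIF had a promoter-window peak at 5 of the 10 members, namely Myc, Max, Mxd4, Mnt and Mga, against 19.7% of all protein-coding genes. At a −log10 p of at least 10 it kept 1 member, Myc, against 11.8% of all genes, so that excess did not hold at the stricter limit. RXR in LIF reached 7 members (46.4% of all genes) and Nur77 in LIF 3 members (29.8%). In NCs, FGFR1 reached 7 members in library 1 (55.9%) and 8 in library 2 (51.5%), a mean of 7.5 ± 0.707 (SD, n = 2). The RXR list in RA reached 3 members (26.2%), Nur77 in RA 4 members (30.9%) and H3.3 in RA 4 members (17.9%). With 10 genes a single member is worth 10.0 percentage points, so the Nur77 and RXR counts in RA and Nur77 in LIF lay within 1 member of the share of all genes. Members also had more sequence in which to hold a peak, with a median window of 12303 bp against 8812 bp for all protein-coding genes.

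**Figure D1:**
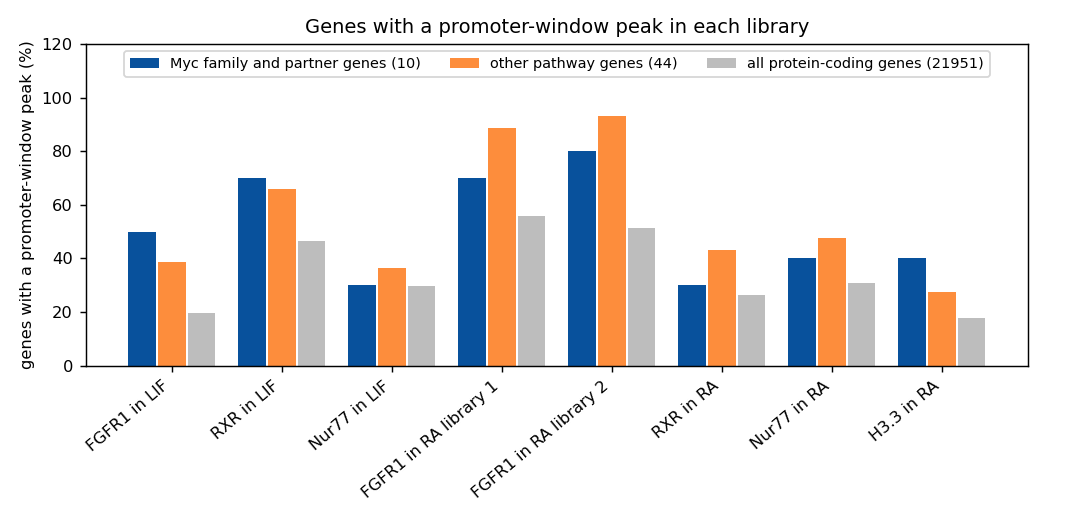
Percent of genes (y axis) with at least 1 promoter-window peak in each library (x axis), as bars for the 10 members, 44 other pathway genes and all 21951 protein-coding genes. The member bar stands above the bar of all genes by the widest margin for FGFR1 in LIF, at 50.0% against 19.7%, and nearly level with it for Nur77 in LIF, at 30.0% against 29.8%.

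Within the family the libraries were unevenly shared. Max and Mga had a promoter-window peak in all 8 libraries, which 3.69% of all protein-coding genes also had, and without a control library these peaks, shared by all 4 antibodies, could not be set against an input. Myc, Mycn and Mycl had promoter-window peaks in 1, 2 and 1 libraries. Mxi1 was reached in 6 libraries, Mxd1 and Mxd4 in 5 each, Mnt in 3 and Mxd3 in 2. At Mxi1 the calls outside the FGFR1 RA libraries rested on peaks that hold alternating runs. Mnt was listed for each of the 3 FGFR1 libraries and for none of the others, a pattern found at 0.629% of all protein-coding genes. Exact patterns of the other members were found at 0.169% (Myc) to 3.69% (Max and Mga) of genes, with Mxd1 at 0.415% and Mxd4 at 0.624%. The LIF peak at Mnt also lay at a different site from the promoter-window peaks of RA library 1.

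**Figure D2:**
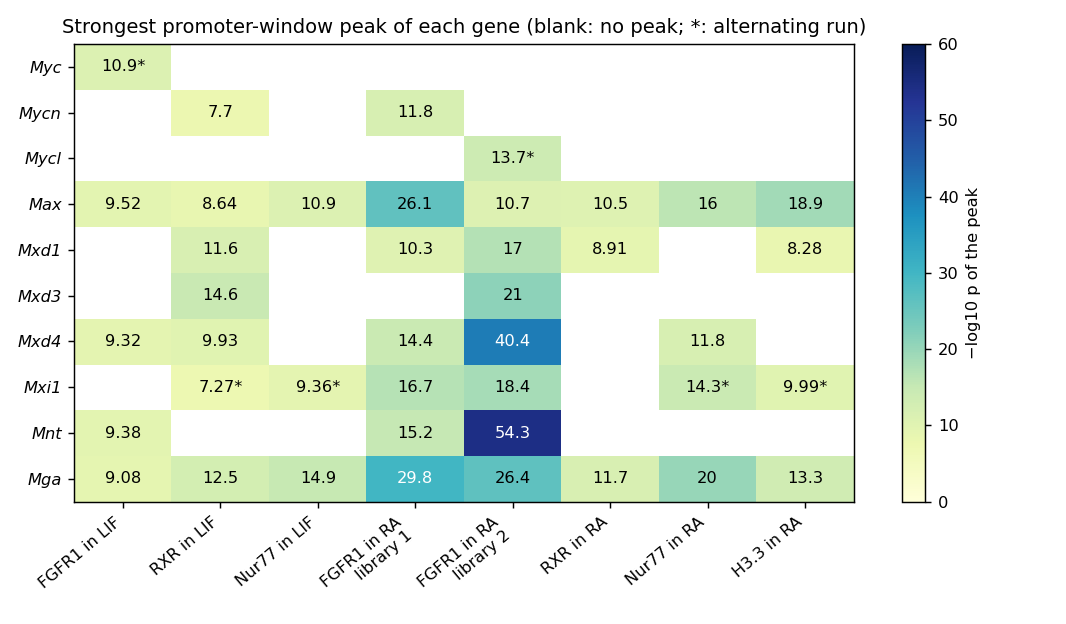
Highest −log10 p of any promoter-window peak for each member (rows) in each library (columns), with blanks where no peak was listed and an asterisk where that peak holds an alternating run. The rows of Max and Mga are filled in all 8 columns, while the 3 rows of Myc, Mycn and Mycl hold 4 filled cells in all.

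Myc, which encodes the founding member of the family, lies at chr15:61985391-61990374 and has 8 annotated transcripts with 6 starts. A single peak was listed in or near it, for FGFR1 in LIF, at chr15:61987298-61987441 with 6.95-fold enrichment, a −log10 p of 10.9 and 12 fragments at the summit. That summit lay in an intron, 1973 bp downstream of the outermost start and at -58 bp from an internal start, inside the run of 47 bp printed above. It counts as promoter-window binding only through the internal starts, and the call was lost with 1 start per gene or without peaks that hold alternating runs.

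No other library listed a peak in the window or body of Myc, although as few as 4 to 8 fragments at the genome-wide background would have passed the limit. The nearest peaks to a Myc start in the other libraries lay 15423 to 90392 bp downstream. For FGFR1 in RA libraries 1 and 2 they were at the start of Pvt1, the long noncoding RNA gene next to Myc, 50571 and 50433 bp from the nearest Myc start, with −log10 p values of 16.0 and 6.75. The summits for Nur77 and H3.3 in RA lay 90392 and 90380 bp away inside Pvt1, and both of those peaks held alternating runs. The Myc peak was thus seen in 1 library with no replicate, and an unlisted region is not shown to be unbound.

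Mycn, the paralogue known for its role in neural progenitors, lies at chr12:12936093-12941914 on the minus strand. Its 5′ UTR held a peak of RXR in LIF, with 4.95-fold enrichment, a −log10 p of 7.70 and 12 fragments. The same stretch had a peak of FGFR1 in RA library 1, at 6.74-fold with a −log10 p of 10.6 and 12 fragments, and the 2 summits were 2 bp apart. The same FGFR1 library listed another peak in a coding exon, 2199 bp inside the gene, at 7.26-fold and 13 fragments. FGFR1 in RA library 2 listed no peak at Mycn, so the NC binding was not seen in both libraries.

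Mycl, the third MYC gene, lies at chr4:122995652-123002485. Its 2 peaks belonged to FGFR1 in RA library 2, with summits 21 bp and 329 bp inside the gene in the 5′ UTR. The one nearer the start had 4.98-fold enrichment, a −log10 p of 9.37 and 17 fragments, and the other 6.24-fold, 13.7 and 22 fragments. Library 1 and the other 6 libraries listed nothing there. None of the 3 MYC genes was therefore reached in both FGFR1 RA libraries.

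Max encodes the shared partner with which MYC proteins bind E-boxes, and lies at chr12:76937269-76962201 on the minus strand. Its start held a peak in all 8 libraries, with summits between -39 and 50 bp relative to the outermost start. In LIF the peak had 6.43-fold enrichment for FGFR1, 5.73-fold for RXR and 6.71-fold for Nur77, on 10, 11 and 13 fragments. In RA it had 13.7-fold enrichment for FGFR1 in library 1 and 5.71-fold in library 2, on 21 and 17 fragments. RXR in RA had 7.04-fold, Nur77 in RA 9.34-fold and H3.3 in RA 11.0-fold, on 9, 15 and 15 fragments. The −log10 p values ran from 8.64 for RXR in LIF to 26.1 for FGFR1 in RA library 1. The highest of the 8 folds and the lowest came from the 2 libraries of the same group. Nur77 in LIF had a weaker peak with its summit at -226 bp, at 5.27-fold, and RXR in LIF had an intron peak 16963 bp inside the gene at 5.83-fold.

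Mga, a large protein with a T-box domain in addition to its MAX-binding domain and a component of a Polycomb complex, lies at chr2:119897228-119969581. All 8 libraries had a peak at its outermost start, with the summit nearest that start between -30 and 80 bp. In LIF the folds were 6.32 for FGFR1, 7.68 for RXR and 8.91 for Nur77, on 8, 13 and 14 fragments. In RA, FGFR1 reached 15.3-fold in library 1 and 9.33-fold in library 2, on 23 and 35 fragments. RXR in RA had 7.61-fold, Nur77 in RA 11.4-fold and H3.3 in RA 8.22-fold, on 9, 16 and 9 fragments. The −log10 p values ran from 9.08 for FGFR1 in LIF to 29.8 for FGFR1 in RA library 1, and all 8 peaks overlapped the start-site stretch printed above.

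Farther into Mga, RXR in LIF and FGFR1 in RA library 1 each had another peak 409 bp and 341 bp inside the gene. An intron site from 1091 to 1236 bp inside the gene was listed for FGFR1, RXR and Nur77 in LIF and for FGFR1 in RA library 1, at 6.12-fold to 6.50-fold. This intron site held all 3 LIF libraries and 1 of the 5 RA libraries. Among libraries with the site, inferred depth was 2.71 (FGFR1), 7.09 (RXR) and 4.98 (Nur77) fragments per kb in LIF. It was 4.16 in FGFR1 RA library 1, which also had the site. Libraries without it stood at 6.78 (FGFR1 in RA library 2), 3.82 (Nur77 in RA), 1.87 (RXR in RA) and 1.27 (H3.3). The part of depth in this pattern was not tested.

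**Figure D3:**
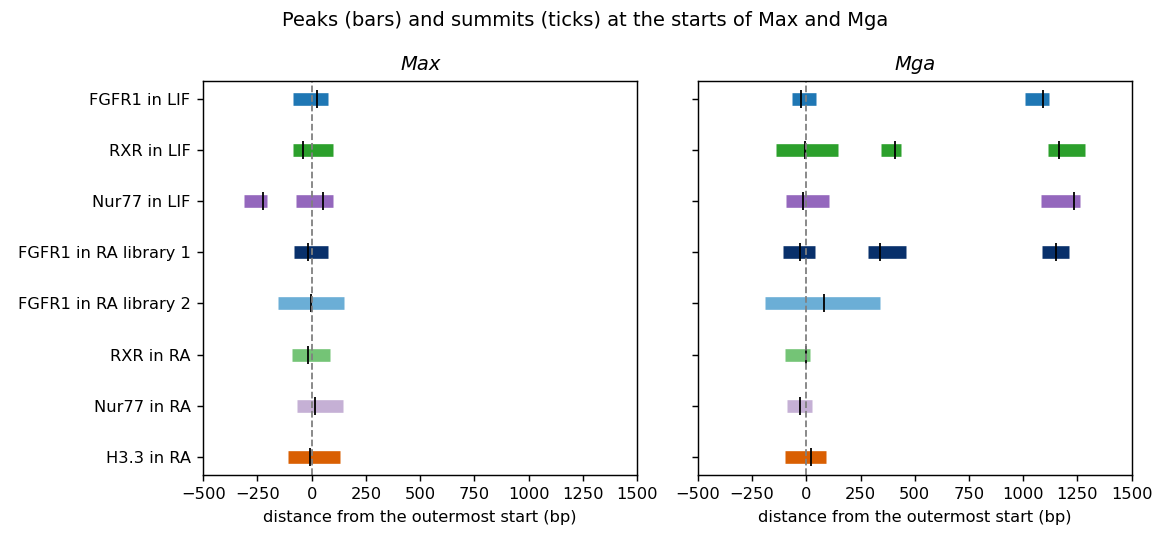
Peaks at Max and Mga as horizontal bars, with their summits as vertical ticks, for each library (y axis) against the distance from the outermost start in bp (x axis, negative upstream). All 8 libraries have a bar across or next to the dashed start line in both panels, and the Mga intron site beyond 1000 bp appears in 4 libraries.

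At these shared sites the libraries could be compared through the multiple of their own genome-wide background. At Max, FGFR1 in LIF stood at 32.4 times the background (15.5 to 59.5), FGFR1 in RA library 1 at 70.0 (43.4 to 107) and library 2 at 16.4 (9.55 to 26.2). The intervals of the 2 RA libraries did not overlap, and the LIF value lay between them, so no LIF to RA difference exceeded the spread between replicates. At Mga the values were 25.9 (11.2 to 51.0) in LIF, 76.7 (48.6 to 115) in RA library 1 and 33.7 (23.5 to 46.9) in RA library 2. Both RA values were higher than the LIF value at Mga, but the intervals of both RA libraries overlapped that of LIF.

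The smallest peak width, from which the fragment length was inferred, was 72 bp in FGFR1 RA library 1 and 153 bp in library 2, and its part in the gap was not tested. RXR at Max stood at 19.4 (9.68 to 34.7) in LIF and 41.5 (19.0 to 78.7) in RA. For Nur77 at Max the values were 30.0 (16.0 to 51.3) in LIF and 42.7 (23.9 to 70.4) in RA. At Mga, RXR stood at 22.9 (12.2 to 39.2) and 41.5 (19.0 to 78.7), and Nur77 at 32.3 (17.7 to 54.2) and 45.5 (26.0 to 74), in LIF and RA. Each of these 4 pairs of intervals overlapped, with 1 library a state. The median of all peaks in a library was 21.1 in LIF and 41.5 in RA for RXR, and 23.1 and 28.5 for Nur77. The RXR values at Max and Mga thus lay close to the median of each list. For FGFR1 the median was 35.6 in LIF, and 33.3 and 26.0 in RA libraries 1 and 2. The H3.3 value at Max was 98.3 (55.0 to 162), against a median of 59.0 for all H3.3 peaks.

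**Figure D4:**
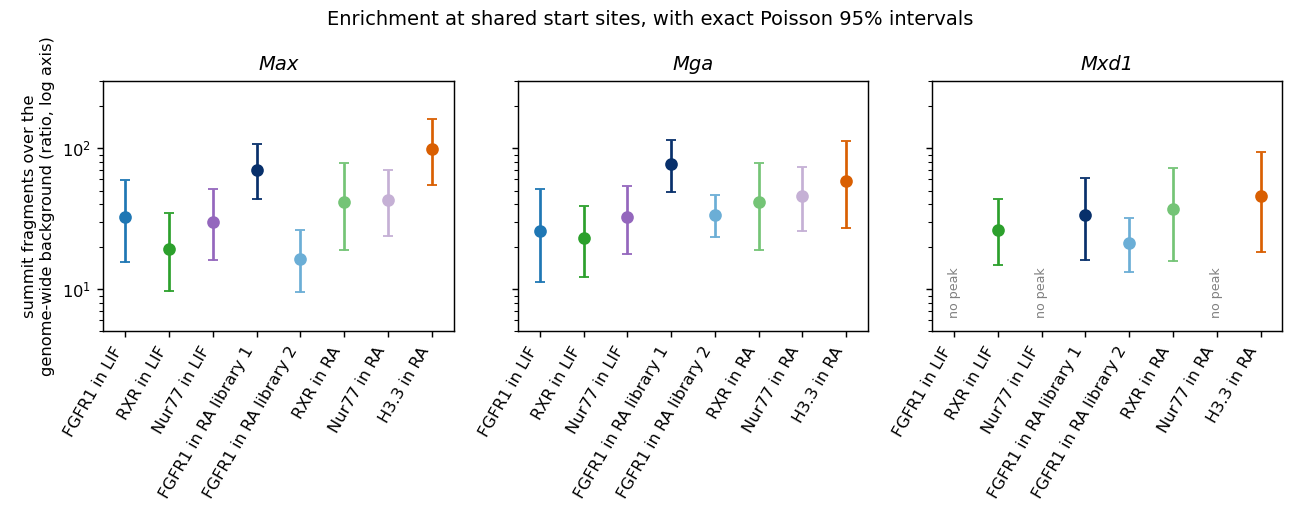
Summit fragments as a multiple of the genome-wide background (y axis, log scale) at the start sites of Max, Mga and Mxd1 in each library (x axis), with exact Poisson 95% intervals as error bars. At Max the 2 FGFR1 RA libraries lie at 70.0 and 16.4 on either side of FGFR1 in LIF at 32.4, and the intervals of LIF and RA overlap for RXR and Nur77.

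Mxd1, a repressor partner of MAX that is typically induced as cells differentiate, lies at chr6:86647042-86669161 on the minus strand. Its first exon held peaks in 5 libraries with summits 80 to 193 bp inside the gene. RXR had 6.68-fold enrichment on 15 fragments in LIF and 6.24-fold on 8 fragments in RA. FGFR1 in RA had 5.95-fold on 10 fragments in library 1 and 8.05-fold on 22 fragments in library 2, and H3.3 in RA had 5.87-fold on 7 fragments. The −log10 p values of this exon site ran from 8.28 for H3.3 to 17.0 for FGFR1 in library 2. FGFR1 in LIF listed no peak at Mxd1, and neither Nur77 list had a promoter-window peak.

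An upstream site of Mxd1, with summits at -385 and -409 bp, was shared by RXR in LIF at 5.39-fold and FGFR1 in RA library 1 at 5.95-fold. An internal start had a peak of FGFR1 in RA library 1 6554 bp inside the gene, at 6.87-fold. A coding exon 18109 to 18191 bp inside the gene held peaks of FGFR1 in RA library 1 at 7.50-fold and Nur77 in RA at 7.82-fold, whose summits were 82 bp apart. Mxd1 and Mxi1 were the 2 members with a promoter-window peak in both FGFR1 RA libraries and none for FGFR1 in LIF, a pattern of 26.0% of all protein-coding genes.

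Mxd3, the MXD protein linked to proliferating progenitors, lies at chr13:55325168-55329823 on the minus strand and had 2 peaks. Directly upstream of its start lay a peak of FGFR1 in RA library 2, 568 bp wide with its summit at -109 bp, at 6.13-fold with a −log10 p of 21 and 40 fragments. RXR in LIF had a peak with its summit at -4470 bp, at 7.20-fold, with a −log10 p of 14.6 and 20 fragments. The 2 peaks lay at separate sites, and library 1 of FGFR1 in RA listed neither.

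Mxd4, also a MAX-binding repressor, lies at chr5:34173883-34187720 on the minus strand. The site with summits from -508 to -400 bp was found in all 3 FGFR1 libraries and in RXR in LIF. FGFR1 stood there at 6.15-fold in LIF, 8.14-fold in RA library 1 and 11.8-fold in RA library 2, on 11, 16 and 49 fragments. Over the genome-wide background these were 35.6 (17.8 to 63.7), 53.4 (30.5 to 86.6) and 47.2 (35.0 to 62.5) times, so the 3 FGFR1 libraries differed by less than their counting error. The −log10 p values were 9.32, 14.4 and 40.4 in the same order. RXR in LIF had 5.14-fold on 12 fragments with a −log10 p of 8.01, and no peak of RXR in RA was listed at Mxd4.

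Toward the 3′ end of Mxd4, within the window of an internal start, FGFR1 in LIF and FGFR1 in RA library 1 had summits 2 bp apart in the 3′ UTR, at 6.03-fold and 6.48-fold. A neighbouring coding-exon site held FGFR1 in RA library 1 at 6.51-fold and Nur77 in RA at 7.30-fold. RXR in LIF had an intron peak 545 bp inside the gene at 5.91-fold, and FGFR1 in RA library 2 a peak at -35 bp with 5.42-fold. The Nur77 call at Mxd4 rests on the internal start alone and was lost with 1 start per gene.

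Mxi1, a MAX partner that antagonises MYC, is the second-longest member at 65293 bp, at chr19:53310518-53375810 with 9 starts. An internal group of starts about 19 kb inside the gene drew most of its promoter-window peaks. The site with the 45 bp run printed above held RXR in LIF at 4.87-fold, Nur77 in LIF at 5.98-fold, FGFR1 in RA library 1 at 9.23-fold and H3.3 in RA at 6.71-fold. For FGFR1 in RA library 2 the peak, at 7.74-fold, touched the same site but began after the run had ended. The −log10 p values at this site ran from 7.27 for RXR in LIF to 18.4 for FGFR1 in RA library 2.

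Both FGFR1 RA libraries also had peaks 19081 to 19256 bp inside the gene, at 4.10-fold and 9.26-fold in library 1 and 6.51-fold in library 2. Library 1 had another 18791 bp inside at 8.08-fold. At the outermost start, FGFR1 in RA library 2 had a peak at -45 bp with 5.42-fold, and Nur77 in RA one 658 bp inside, with an alternating run, at 8.12-fold. FGFR1 in LIF and RXR in RA had no promoter-window peak at Mxi1. Without peaks that hold alternating runs, the Mxi1 calls of RXR in LIF, Nur77 in LIF, Nur77 in RA and H3.3 were lost. With 1 start per gene, those of RXR in LIF, Nur77 in LIF, FGFR1 in RA library 1 and H3.3 were lost.

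The 6 peaks of the family with the highest −log10 p lay in an Mxi1 intron and outside every promoter window, 38886 to 38959 bp inside the gene. The bases shared by the 7 listed peaks, chr19:53348808-53349535, consisted of 6 alternating runs that covered 99.3% of 728 bp. In LIF the peak had 14.2-fold enrichment for FGFR1, 17.5-fold for RXR and 21.6-fold for Nur77, on 56, 71 and 73 fragments. In RA it had 23.6-fold for FGFR1 in library 1, 15.1-fold for RXR, 21.1-fold for Nur77 and 23.6-fold for H3.3, on 76, 61, 86 and 84 fragments. The −log10 p values ran from 50.7 for FGFR1 in LIF to 94.2 for H3.3. By −log10 p it was the third strongest of all H3.3 peaks and ranked 25 among the FGFR1 peaks of library 1. No peak of FGFR1 in RA library 2 was listed there. Alternating runs were present in 1.26% of all peaks of that library, against 21.1% to 51.7% in the others, and the reason was not tested. All 4 antibodies thus had a listed peak at this repeat, and without a control library the part of the repeat itself in these values was not tested.

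Single peaks completed the gene body of Mxi1. RXR in RA had an intron peak 10917 bp inside at 7.10-fold, FGFR1 in RA library 1 a peak at the distal run at 7.11-fold, and Nur77 in LIF a 3′ UTR peak at 6-fold.

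**Figure D5:**
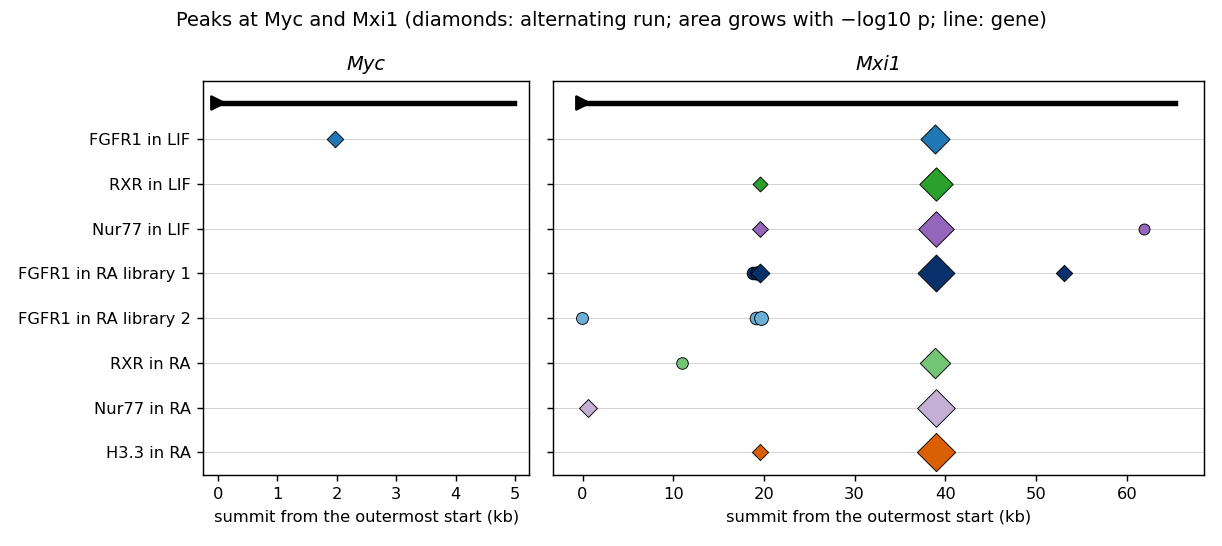
Summits at Myc and Mxi1 for each library (y axis) against the distance from the outermost start in kb (x axis), with diamonds for peaks that hold an alternating run, circles for the others and an area that grows with −log10 p. The column of large diamonds near 39 kb in Mxi1 is the intron repeat, present in 7 libraries and blank for FGFR1 in RA library 2, and Myc shows a single diamond for FGFR1 in LIF.

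Mnt, a widely expressed MAX partner that represses MYC targets, lies at chr11:74830920-74845725. An intron site from 1039 to 1267 bp inside the gene held the promoter-window peak with the highest −log10 p of the family, FGFR1 in RA library 2 at 10.0-fold with a −log10 p of 54.3 and 79 fragments. Library 1 had 2 peaks at the same site, at 5.88-fold and 7.83-fold on 14 and 19 fragments with −log10 p values of 9.88 and 15.2. Over the genome-wide background the stronger of them stood at 63.4 (38.1 to 98.9) and the other at 46.7 (25.5 to 78.3). Library 2 stood at 76.2 (60.3 to 94.9), with its summit nearer to that of the weaker library 1 peak. The intervals of both library 1 peaks overlapped that of library 2.

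In LIF, FGFR1 listed nothing at that Mnt site. It had a peak at an internal start instead, 6805 bp inside the gene, at 5.78-fold on 13 fragments with a −log10 p of 9.38, which overlapped by its edge a peak of RA library 2 at 5.17-fold. Inferred depth was 2.71 fragments per kb for FGFR1 in LIF and 4.16 in RA library 1, and its part in the absence was not tested. The absence in LIF rests on 1 library without a replicate. In the gene body, FGFR1 in RA library 1 had a coding-exon peak at 6.07-fold and library 2 an intron peak at 5.39-fold.

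The 2 FGFR1 RA libraries were then compared with each other. Both had a promoter-window peak at 6 members (Max, Mxd1, Mxd4, Mxi1, Mnt and Mga), against 42.6% of all protein-coding genes. At all 6 the peaks of the libraries shared bases, and at 4 (Max, Mxd1, Mxi1 and Mnt) summits lay within 100 bp. At Mxi1 that summit match rested on a library 1 peak close to the p limit, at 4.10-fold with a −log10 p of 5.15 and 7 fragments. Those called in 1 library alone were Mycn in library 1 and Mycl and Mxd3 in library 2. By role, the 6 shared members were Max and 5 of the 6 genes whose proteins compete with MYC for it, without Mxd3. The same 6 had the widest promoter windows of the family, 12057 to 32739 bp, against 6472 to 9688 bp for the rest. A split by role could thus not be told apart from window width. With an equal number of peaks per list, the libraries shared Mxi1, Mnt and Mga.

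For RXR, the members called in LIF and not in RA were Mycn, Mxd3, Mxd4 and Mxi1, 4 members against 24.5% of all protein-coding genes. The RA calls (Max, Mxd1 and Mga) were also LIF calls, at sites that shared bases. This direction could not be read at equal depth. Scaled to the background density of the RA library, RXR in LIF kept 0 members and 8.82% of all genes. RXR in RA had 3 members and 26.2%. The promoter-window peaks of RXR in LIF at members held 11 to 20 fragments. Scaling from 7.09 to 1.87 fragments per kb takes them near the 4 fragments a peak needed in RA, so calls were lost by construction. With an equal number of peaks per list, both states had 2 members. For Nur77, Max and Mga were called in both states with shared bases, Mxi1 in both states at separate sites, and Mxd4 in RA.

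Other genes of the pathway were counted by lists. Of 44 such genes, 17 had a promoter-window peak for FGFR1 in LIF, 29 for RXR in LIF and 16 for Nur77 in LIF. In RA the counts were 39 and 41 for FGFR1 libraries 1 and 2, 19 for RXR, with 12 for H3.3 and 21 for Nur77. Their shares, from 27.3% to 93.2%, were above those of all protein-coding genes in each library.

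For FGFR1, the share of all protein-coding genes called was 19.7% in LIF and 55.9% and 51.5% in RA libraries 1 and 2. A call in all 8 libraries was found at 3.69% of all genes, and no call in any library at 29.8%. Among 16 cofactors, which join MYC or MXD dimers on chromatin, 15 were called in each FGFR1 RA library and 7 in LIF. Ep400 and Ruvbl2, both subunits of a chromatin-remodelling complex that MYC recruits, were called in all 8 libraries, and Ruvbl1, the close partner of Ruvbl2, in none. The 9 genes of MYC turnover and modification were called without exception in both FGFR1 RA libraries and 3 of them in LIF, with Pim1, a kinase, and Usp28, a deubiquitinase that stabilises MYC, called in all 8.

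Of 16 textbook MYC targets, 13 and 14 were called for FGFR1 in RA and 7 in LIF. The shares of all genes were 55.9%, 51.5% and 19.7% in that order, so calls rose with RA among all genes as well. Odc1, the first enzyme of polyamine synthesis, was called in all 8 libraries, as were 3.69% of all genes. Ccnd2, a cyclin, and Shmt2, a mitochondrial enzyme of one-carbon metabolism, were called in none, as were 29.8% of all genes. The parallel MLX arm (Mlx, Mlxip and Mlxipl) had 3 of 3 genes called in FGFR1 RA library 2, 2 in library 1 and 0 in LIF. None of the 44 genes had the pattern of Myc, a peak for FGFR1 in LIF alone, which 37 protein-coding genes had in all.

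Sequence words were searched on both strands in 101 bp around each promoter-window summit, and none of the words contains another. The E-box CACGTG was present at 5 of the 62 member summits, all of them at the Max start (RXR in LIF and RA, both FGFR1 RA libraries and H3.3), against 3.37% to 6.94% of all promoter-window summits of a library. The nuclear receptor word AGGTCA was found at 0 of 62, against 3.13% to 4.44%. GGGCGG, bound by SP factors, was present at 13 of 62, against 21.5% to 30.1%. CCAAT was found at 3, against 4.30% to 7.64%. The ETS core CCGGAA and the CREB word TGACGTCA were each found at 1, at Mxd1, against 4.92% to 11.5% and 0.912% to 1.95%. Member summits of different libraries overlap, so these counts repeat the same few sequences.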

How the data were processed

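Per the labels and the study's methods, the authors aligned reads to mm10 with Bowtie 1.0, kept reads with a single alignment, and called peaks in each library with MACS2 at a p limit of 1e-05 and without pooling. The MACS2 command names no control. The deposited values are MACS2's ratio (fold) over local background, its −log10 p and −log10 q, its score, which is derived from the −log10 p, and the summit's offset. Fold and −log10 p were used here, and the score and −log10 q were not.

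Whole summit fragments and a background were solved from fold and −log10 p, within 0.002 of the deposited −log10 p, for 100% of peaks in each library. The lowest background of a list and its smallest peak width gave the inferred depth. Solver, window overlap and run finder were tested on simulated data. Sequence came from RefSeq's GRCm38 assembly, which matches mm10, and gene models from GENCODE M21, both read with Python 3.11.15 and pysam 0.24.0, and exact intervals were computed with scipy 1.17.1.

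Groups were read from sample titles. The members and lists were chosen with earlier results of these data known. All 10 members are named, by role, with values for promoter-window peaks and for gene-body peaks shared by 2 libraries or strongest in the gene. Other body peaks were named after their values were seen. Of the pathway lists, genes called in all 8 libraries, in none, or with the pattern of Myc are named. With 1 library in 6 of 7 groups no test was run and no p-value computed. The alternatives were a −log10 p of at least 10, 11378 peaks per list, no peaks with alternating runs, windows within 1000 bp of a start, 1 start per gene, an overlap of 1 bp, the summit in the window, equal depth within a factor, each FGFR1 RA library alone, and summits within 100 bp. The count of members called in every library, also without FGFR1 RA library 2, was added after the data were seen.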

Additional observations from a re-analysis of the deposited data

Results flagged for a closer look

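The number of members with a promoter-window peak moved in opposite directions with RA for different proteins. It was higher by 2.5 for FGFR1 (5 in LIF, 7 and 8 in RA) and by 1 for Nur77 (3 and 4), and it changed by -4 for RXR (7 and 3). The share of all protein-coding genes moved the same way for each protein. It was 19.7% in LIF and 55.9% and 51.5% in RA for FGFR1. For Nur77 it was 29.8% and 30.9%, and for RXR 46.4% and 26.2%, so these directions were not particular to the members. The difference between the proteins was not tested. Inferred depth moved in the same direction as the count for RXR, at 7.09 fragments per kb in LIF against 1.87 in RA. It also did so for FGFR1, at 2.71 in LIF against 4.16 and 6.78 in RA. For Nur77 depth was lower in RA, at 4.98 in LIF against 3.82, while the count was higher. At equal depth within a factor the RXR counts were 0 in LIF and 3 in RA, and those of FGFR1 stayed at 5, 7 and 8. The RXR scaling takes LIF peaks of few fragments close to the p limit, so those counts cannot decide the direction.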

How the results depend on the processing

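Of 98 recomputed counts, 87 stayed within 1.5 times the reported one. With a −log10 p of at least 10, FGFR1 in LIF fell from 5 members to 1 (Myc), RXR in LIF from 7 to 3 and H3.3 from 4 to 2, and no member (0) was called in every library. With an equal number of peaks per list, RXR in LIF had 2 members, FGFR1 in RA library 1 had 4, both FGFR1 RA libraries shared 3, coinciding FGFR1 RA peaks were found at 3, and 1 member (Mga) was called in every library. With 1 start per gene, FGFR1 in LIF had 3 members, and at equal depth RXR in LIF had 0. The cause of the changes at a stricter p was not tested, and the other settings change the peaks or starts counted by construction. Using either FGFR1 RA library alone gave 7 to 8 members against a mean of 7.5. Max and Mga remained in every library without peaks that hold alternating runs, within 1 kb of any start, with 1 start per gene, with an overlap of 1 bp, by the summit and without FGFR1 RA library 2. No paired analysis was possible because 6 of 7 groups had 1 library and no test was run. Peaks rest on few fragments, at a median of 9 to 12 outside FGFR1 RA library 2, so a missing call is not a sign of no binding.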
